A study of Mus musculus with 6 samples.

Results

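The nuclear-encoded subunits of the respiratory chain were followed in RNA-seq libraries of mouse tibialis anterior muscle. They were taken by gene symbol as the protein-coding genes named *Ndufa*, *Ndufb*, *Ndufc*, *Ndufs* or *Ndufv* with a number, *Ndufab1*, *Sdha* to *Sdhd*, the *Uqcr* genes, *Cox4* to *Cox8* and the *Atp5* genes, without assembly factors and pseudogenes. This gave 84 of the 52636 genes in the count table, with 37 in complex I, 4 in complex II, 8 in complex III, 18 in complex IV and 17 in complex V. Symbols alone decided, so a member such as *Atp5s* or *Cox7a2l* may not be a structural subunit. A subunit with another symbol, such as *Cyc1*, is left out. Both genotypes were male C57BL/6 mice with floxed *Bmal1* (*Arntl*) and a Cre recombinase that tamoxifen activates, driven by the human skeletal actin promoter (HSA-MCM), so that recombination is directed to muscle fibers and not to the other cells of the tissue. At 12 to 16 weeks of age, 3 mice were injected daily with 2 mg of tamoxifen over 5 days, which makes them iMS*Bmal1*-/-. The other 3, iMS*Bmal1*+/+ and of the same age, were given the vehicle, ethanol in sunflower seed oil, and muscles were taken 5 weeks after treatment in both groups, so that the loss of *Bmal1* and exposure to tamoxifen cannot be told apart. Whole muscles were pulverized before total RNA was extracted, ribosomal RNA was removed and stranded libraries were sequenced.

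The respiratory chain sits in the inner mitochondrial membrane. Complexes I and II pass electrons from NADH and succinate to ubiquinone, complex III passes them on to cytochrome c and complex IV to oxygen, while complexes I, III and IV pump protons that drive ATP synthesis by complex V. Most subunits are encoded in the nucleus and imported, whereas a core of complexes I, III, IV and V is encoded by mitochondrial DNA. Striated muscle uses its own forms of several complex IV subunits, and oxidative fibers hold more of the chain than glycolytic fibers, which make up most of the tibialis anterior.

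Library totals were 2091912, 1997203 and 2716079 gene counts for iMS*Bmal1*+/+, and 2403438, 1616290 and 2068657 for iMS*Bmal1*-/-. Of these, the 84 members together took 1102, 1226 and 1383 counts in iMS*Bmal1*+/+ muscle against 1599, 1177 and 1548 in iMS*Bmal1*-/- muscle. The members therefore hold between 0.0509 and 0.0748% of the gene counts of a library, and their median is 10.3 counts per library. The library totals are far below the read depth per sample that the paper states, and the reason was not tested. A member with 0 counts may have had up to 3, which is 1.14 to 1.80 CPM (counts scaled to the library total with TMM factors) across the 6 libraries and covers counting error only. *Bmal1* itself had 5, 4 and 11 counts in iMS*Bmal1*+/+ muscle against 13, 5 and 5 in iMS*Bmal1*-/- muscle. The groups overlap, and these counts cover the whole gene and not the deleted exon alone, so they do not check the genotype labels. The kit marks the strand of the RNA, and the strand setting of the counting is not given in the sources used here. Which strand the RNA behind the counts came from was not tested, for the members or for any other gene. All counts, levels and fold changes below, of members, markers and other genes, are therefore those of the reads assigned to them, and RNA levels rest on a setting that is not known. Each library comes from 1 mouse, and p-values measure the spread between these 6 samples. Within a group, replicate 3 of iMS*Bmal1*+/+ stood furthest from the others. Its chi-square per degree of freedom over the tested genes was 13.3 and 8.51 against replicates 1 and 2. The other pairs within a group gave 3.25 to 4.91.

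None of the members passed the test, and most of the values lay higher in iMS*Bmal1*-/- muscle. With edgeR's quasi-likelihood test at an adjusted p under 0.05, 0 of the 45 members that passed the filter on low counts were called, against 125 of all 6831 genes tested (1.83%), of which 52 were higher in iMS*Bmal1*-/- (0.761%) and 73 lower (1.07%). At an unadjusted p under 0.05, edgeR took 8 of the 45 members and 814 of all genes tested. DESeq2 took 3 of the 45 members at that threshold, and its number over all genes is not given here. After adjustment DESeq2, which gave 19 of the 45 no adjusted p, called 0 members and 118 of all genes. With limma 0 members were called, and 122 or 121 of all genes (log2 of the normalized signal + 1 or + 0.5). Of the 45 tested members, 38 had a log2 fold change above 0, with a median of 0.51, whereas 49.8% of all genes tested lay above 0 with a median of -0.00087. The filter can favor members that are high in 1 group, so the same was counted without it: among the 81 members with any count, the mean CPM was higher in iMS*Bmal1*-/- for 63 and lower for 18 (77.8% higher, against 52.7% of the 23095 genes with counts). The groups did not overlap in 21 of these 81 members, all higher in iMS*Bmal1*-/-, compared with 5.67% of genes with counts, and in 0 members in the other direction, compared with 4.22%. In the 45 tested members the numbers were 13 higher (8.84% of all genes tested) and 0 lower (8.45%). *Ndufs3*, *Cox7b2* and *Cox8c* had 0 counts in every library, and 12 members including these had at most 3 counts in each library. No untested member exceeded 14 counts in a library, and the 39 of them had together 91, 123 and 143 counts in iMS*Bmal1*+/+ muscle against 158, 135 and 168 in iMS*Bmal1*-/- muscle.

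Summed over all 84 members, the level was 548, 633 and 525 CPM in iMS*Bmal1*+/+ muscle against 696, 705 and 738 CPM in iMS*Bmal1*-/- muscle. All iMS*Bmal1*-/- libraries lay above all iMS*Bmal1*+/+ libraries, with means of 713 ± 22.3 and 569 ± 56.9 CPM (SD, n = 3 each). The difference was 0.33 on the log2 scale, or 1.26-fold (exact permutation test, two-sided, p = 0.1, the smallest that 3 libraries against 3 allow). In tissue RNA, fewer cells of a type and less RNA per cell cannot be told apart. The summed markers of skeletal muscle fibers (*Acta1*, *Ckm*, *Ttn*, *Myh4*, *Myh1* and *Myh2*) lay higher as well, with 9021, 11700 and 10226 CPM in iMS*Bmal1*+/+ muscle against 12304, 12646 and 14379 CPM in iMS*Bmal1*-/- muscle. *Ttn*, the most abundant of them, made up 55772 counts over the 6 libraries, none of the 6 was at 0, and all 6 had a log2 fold change above 0 (median 0.41) without passing the test. The strand setting is as unknown for these markers as for the members, and *Ttn*, *Ckm*, *Myh1* and *Myh2* have a facing gene too, so neither their sum nor a level divided by it can be taken as a measure of fiber content. Per 1000 CPM of these markers, the members held 60.7, 54.1 and 51.3 CPM in iMS*Bmal1*+/+ muscle against 56.6, 55.8 and 51.3 CPM in iMS*Bmal1*-/- muscle, a scaling chosen after seeing the data. On that scale the groups overlap and the difference is -0.020 on the log2 scale (exact permutation test, two-sided, p = 1.0).

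**Figure D1:**
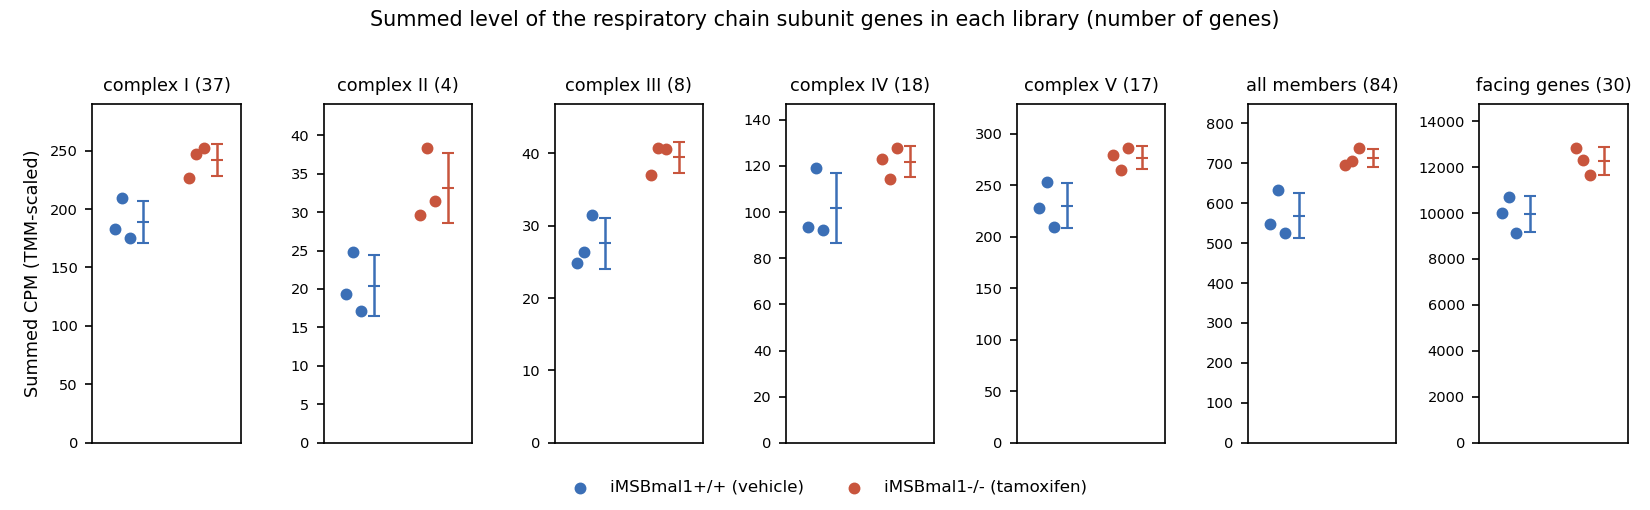
Summed TMM-scaled CPM of the member genes of each complex, of all members and of the genes that face them, with 1 point per library (blue, iMSBmal1+/+; red, iMSBmal1-/-) and the mean ± SD of 3 libraries beside the points; each panel has its own linear axis from 0. The groups overlap for complex IV and do not overlap in the other 6 panels.

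Complex I oxidizes NADH through a peripheral arm of iron-sulfur clusters and pumps protons through a membrane arm. Its 37 members summed to 182, 210 and 175 CPM in iMS*Bmal1*+/+ muscle against 227, 247 and 252 CPM in iMS*Bmal1*-/- muscle. The groups do not overlap, and the difference was 0.36 on the log2 scale (exact permutation test, two-sided, p = 0.1). Per 1000 CPM of muscle fiber markers they overlap, with a difference of 0.0083 (exact permutation test, two-sided, p = 1.0). Of the 19 tested members 14 had a log2 fold change above 0 and 5 below, between -0.11 and 1.10. *Ndufv1*, the subunit that binds NADH and the flavin at the entry of electrons, had 6, 6 and 9 counts in iMS*Bmal1*+/+ muscle against 19, 11 and 12 in iMS*Bmal1*-/- muscle. Every iMS*Bmal1*-/- library was above every iMS*Bmal1*+/+ library, and the log2 fold change of 1.10 ± 0.42 (SE) was the highest in the complex without passing the test (edgeR, adjusted p = 0.261). Its neighbors at the tip of the arm had counts of the same size. *Ndufv2*, which carries an iron-sulfur cluster beside the flavin, had 3, 3 and 4 counts against 11, 11 and 9 and was too low to be tested. *Ndufv3*, an accessory subunit of the same module, had 11, 6 and 4 counts against 20, 10 and 12. In neither gene did the groups overlap in CPM, and *Ndufv3* had a log2 fold change of 1.07 ± 0.48 (SE; edgeR, adjusted p = 0.372). *Ndufs1*, which holds most of the clusters of this module, had 37, 31 and 32 counts in iMS*Bmal1*+/+ muscle against 37, 22 and 28 in iMS*Bmal1*-/- muscle. Its groups overlap and its log2 fold change was -0.11 ± 0.27 (SE; edgeR, adjusted p = 0.937), so the values at the tip did not all lie in 1 direction.

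In the part of the arm that reduces ubiquinone, *Ndufs7*, which bears the last iron-sulfur cluster, had 17, 19 and 16 counts in iMS*Bmal1*+/+ muscle against 25, 20 and 26 in iMS*Bmal1*-/- muscle. The groups do not overlap in CPM (8.11 ± 1.89 and 11.8 ± 0.785 CPM; SD, n = 3 each), with a log2 fold change of 0.55 ± 0.32 (SE; edgeR, adjusted p = 0.535). *Ndufs3*, a core subunit of the same module, had 0 counts throughout, as had *Kbtbd4*, the gene that faces it.

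Among the accessory subunits, *Ndufb8* of the membrane arm had 22, 26 and 33 counts in iMS*Bmal1*+/+ muscle against 43, 30 and 50 in iMS*Bmal1*-/- muscle. In CPM the groups are apart, and the log2 fold change of 0.71 ± 0.25 (SE) came with the smallest adjusted p of any member (edgeR, adjusted p = 0.211). *Ndufa13* and *Ndufb11*, further membrane-arm subunits, also did not overlap, with log2 fold changes of 0.71 and 0.57 (edgeR, adjusted p = 0.429 and 0.524). *Ndufab1*, the mitochondrial acyl carrier protein and the member of the complex with the most counts, had 32, 29 and 51 counts in iMS*Bmal1*+/+ muscle against 37, 24 and 42 in iMS*Bmal1*-/- muscle. Both groups averaged nearly the same level (16.8 ± 2.31 and 16.8 ± 2.90 CPM; SD, n = 3 each). *Ndufb2* likewise overlapped, with 33, 27 and 48 counts against 35, 23 and 39. *Ndufa10*, an accessory subunit related to nucleoside kinases, had the lowest log2 fold change of the complex at -0.11 ± 0.32 (SE; edgeR, adjusted p = 0.945), with 22, 16 and 23 counts against 17, 15 and 20. *Ndufa4* is placed here by its symbol, although its protein is now assigned to complex IV. It had 2, 4 and 5 counts in iMS*Bmal1*+/+ muscle against 9, 10 and 13 in iMS*Bmal1*-/- muscle, without overlap in CPM, and was not tested. In all, 10 of the 37 members did not overlap, each higher in iMS*Bmal1*-/-, compared with 5.67% of genes with counts, and 0 were lower, compared with 4.22%.

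Complex II is succinate dehydrogenase, which also belongs to the tricarboxylic acid cycle, and all 4 of its subunits are nuclear. Their sum was 19.4, 24.8 and 17.1 CPM in iMS*Bmal1*+/+ muscle against 29.6, 38.3 and 31.5 CPM in iMS*Bmal1*-/- muscle. The groups do not overlap, and the difference was 0.71 on the log2 scale or 1.63-fold (exact permutation test, two-sided, p = 0.1), and it rests on 39, 48 and 45 counts against 68, 64 and 66. It was the only complex whose groups did not overlap per 1000 CPM of muscle fiber markers, with 2.15, 2.12 and 1.67 CPM against 2.41, 3.03 and 2.19 CPM and a difference of 0.36 on the log2 scale. *Sdhb*, the iron-sulfur subunit, had 18, 14 and 13 counts in iMS*Bmal1*+/+ muscle against 24, 24 and 26 in iMS*Bmal1*-/- muscle. All iMS*Bmal1*-/- libraries were above the others (7.04 ± 2.02 and 12.4 ± 1.97 CPM; SD, n = 3 each), with a log2 fold change of 0.82 ± 0.33 (SE; edgeR, adjusted p = 0.301). *Sdha*, the flavoprotein that oxidizes succinate, held 50.3% of the counts of the complex, with 17, 32 and 25 counts against 33, 32 and 27. Its groups overlap, and its log2 fold change was 0.43 ± 0.31 (SE; edgeR, adjusted p = 0.656), and it was 0.26 or 0.76 when replicate 1 or 2 of iMS*Bmal1*+/+ was left out, and 0.27 when replicate 2 of iMS*Bmal1*-/- was. The membrane anchors were near the floor. *Sdhc* had 2, 1 and 5 counts against 7, 5 and 6, and *Sdhd* had 2, 1 and 2 against 4, 3 and 7. In both the groups are apart in CPM, and neither could be tested.

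Complex III, the cytochrome bc1 complex, had 8 members. They summed to 24.9, 26.3 and 31.5 CPM in iMS*Bmal1*+/+ muscle against 37.0, 40.7 and 40.5 CPM in iMS*Bmal1*-/- muscle. The genotypes do not overlap, with a difference of 0.52 on the log2 scale (exact permutation test, two-sided, p = 0.1), and per 1000 CPM of muscle fiber markers they do, with a difference of 0.17. *Uqcrh*, the hinge protein between cytochrome c1 and cytochrome c, held 30.1% of the counts, with 17, 14 and 25 in iMS*Bmal1*+/+ muscle against 23, 24 and 24 in iMS*Bmal1*-/- muscle. In CPM the groups do not overlap, and the log2 fold change was 0.48 ± 0.31 (SE; edgeR, adjusted p = 0.596). The small subunits *Uqcrq* and *Uqcr11* overlapped. *Uqcrq* had 11, 14 and 12 counts against 20, 10 and 22 and the highest log2 fold change of the complex, 0.58 ± 0.37 (SE; edgeR, adjusted p = 0.597). *Uqcr11* had 6, 6 and 17 counts against 11, 8 and 10 and the lowest, 0.14 ± 0.45 (SE; edgeR, adjusted p = 0.949). The core proteins and the Rieske iron-sulfur protein were too low to be tested. *Uqcrc1* had 1 count in each of the 6 libraries, and *Uqcrc2* had 9, 5 and 3 against 10, 10 and 6. *Uqcrfs1*, which carries the Rieske cluster, had 1, 4 and 10 counts against 8, 8 and 8.

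Complex IV, cytochrome c oxidase, surrounds its mitochondrially encoded core with nuclear subunits that come in tissue forms. Its 18 members summed to 93.5, 119 and 92.2 CPM in iMS*Bmal1*+/+ muscle against 123, 114 and 128 CPM in iMS*Bmal1*-/- muscle. The second iMS*Bmal1*+/+ library lay above the second iMS*Bmal1*-/- library, so the groups overlap, with a difference of 0.27 on the log2 scale (exact permutation test, two-sided, p = 0.2). Per 1000 CPM of muscle fiber markers they overlap too, with a difference of -0.081. *Cox6c*, a subunit with a single membrane helix, held 25.9% of the counts of the complex, with 72, 66 and 73 in iMS*Bmal1*+/+ muscle against 57, 50 and 46 in iMS*Bmal1*-/- muscle. In counts each iMS*Bmal1*-/- library was below each of the others, in CPM the groups overlap (32.5 ± 4.26 and 25.6 ± 4.06 CPM; SD, n = 3 each), and the log2 fold change of -0.35 ± 0.20 (SE; edgeR, adjusted p = 0.544) was the lowest of all tested members. Without *Cox6c*, the complex summed to 57.7, 85.2 and 64.5 CPM against 98.3, 84.5 and 106 CPM. The groups still overlap through the same pair of libraries, and the difference was 0.49 on the log2 scale (exact permutation test, two-sided, p = 0.2). *Cox7c* had the highest log2 fold change of the tested members, 1.13 ± 0.42 (SE; edgeR, adjusted p = 0.242), with 6, 9 and 8 counts in iMS*Bmal1*+/+ muscle against 15, 11 and 21 in iMS*Bmal1*-/- muscle and no overlap in CPM. *Cox6b1*, on the side that faces cytochrome c, also did not overlap, with 5, 9 and 10 counts against 14, 8 and 15 and a log2 fold change of 0.73 ± 0.43 (SE; edgeR, adjusted p = 0.553). *Cox5a*, a subunit on the matrix side, had 27, 36 and 43 counts against 51, 28 and 39, with overlap and a log2 fold change of 0.26 ± 0.24 (SE; edgeR, adjusted p = 0.760).

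More reads were assigned to the striated muscle forms of complex IV than to the other forms in both genotypes. Per kilobase of exon, *Cox6a2*, the form of heart and skeletal muscle, averaged 15.7 CPM over the 6 libraries, and *Cox6a1*, the liver form, 0.708 CPM. *Cox7a1*, also a muscle form, averaged 12.9 CPM per kilobase and *Cox7a2* 1.07, and *Cox8b* averaged 13.3 and *Cox8a* 2.96. In each of these pairs the muscle form had the higher level in 6 of 6 libraries, as had *Cox4i1*, the common form of subunit 4 (8.91 CPM per kilobase), over *Cox4i2*, the form typical of lung (0.526). Between the genotypes the muscle forms were not told apart by the test. *Cox6a2* had 15, 21 and 21 counts in iMS*Bmal1*+/+ muscle against 26, 13 and 39 in iMS*Bmal1*-/- muscle, which overlap, with a log2 fold change of 0.55 ± 0.34 (SE; edgeR, adjusted p = 0.587; 0.16 without iMS*Bmal1*-/- replicate 3). *Cox7a1* had 13, 10 and 13 counts against 27, 10 and 15, which also overlap (log2 fold change 0.62 ± 0.38, SE; edgeR, adjusted p = 0.578; 0.26 without iMS*Bmal1*-/- replicate 1). *Cox8b* had 6, 9 and 10 counts against 12, 9 and 14 and did not overlap in CPM (log2 fold change 0.59 ± 0.42, SE; edgeR, adjusted p = 0.650). *Cox4i1* had 15, 28 and 27 counts against 27, 34 and 39, with overlap and a log2 fold change of 0.64 ± 0.31 (SE; edgeR, adjusted p = 0.428). The other forms were too low for a fold change. *Cox6a1* had 2, 0 and 0 counts against 1, 1 and 2, and *Cox4i2* had 1, 0 and 0 against 1, 1 and 2. *Cox7a2* had 0, 4 and 5 counts against 1, 2 and 1, and *Cox8a* had 2, 7 and 7 against 5, 1 and 2. *Cox8c* and *Cox7b2*, forms typical of testis, had 0 counts, and *Cox6b2*, another testis form, had 1 count in 1 of the 6 libraries.

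Complex V, the ATP synthase, joins a catalytic head in the matrix to a rotor and a stalk in the membrane. It held 39.6% of all counts of the members, which also depend on gene number and length, more than complex I (33.6%), complex IV (17.5%), complex III (5.25%) and complex II (4.11%). Its 17 members summed to 228, 253 and 209 CPM in iMS*Bmal1*+/+ muscle against 279, 265 and 286 CPM in iMS*Bmal1*-/- muscle. The groups do not overlap, with a difference of 0.27 on the log2 scale (exact permutation test, two-sided, p = 0.1), and per 1000 CPM of muscle fiber markers they overlap, with a difference of -0.080. The catalytic subunits of the head were among the most abundant members. *Atp5b*, the beta subunit that makes ATP, had 80, 94 and 79 counts in iMS*Bmal1*+/+ muscle against 111, 80 and 121 in iMS*Bmal1*-/- muscle. *Atp5a1*, the alpha subunit, had 51, 73 and 50 counts against 79, 69 and 92. Both overlap in CPM, with log2 fold changes of 0.39 ± 0.19 and 0.56 ± 0.23 (SE; edgeR, adjusted p = 0.416 and 0.307). *Atp5c1*, the central stalk, did not overlap, with 13, 16 and 21 counts against 21, 14 and 22 and a log2 fold change of 0.30 ± 0.32 (SE; edgeR, adjusted p = 0.800).

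In the peripheral stalk, *Atp5f1*, its b subunit, had the most counts of any member, with 117, 100 and 137 in iMS*Bmal1*+/+ muscle against 139, 91 and 133 in iMS*Bmal1*-/- muscle. The groups overlap (53.9 ± 3.68 and 59.5 ± 4.54 CPM; SD, n = 3 each), and the log2 fold change was 0.15 ± 0.15 (SE; edgeR, adjusted p = 0.793). *Atp5j*, coupling factor 6 of the same stalk, had 103, 106 and 136 counts against 133, 85 and 84, with overlap and the lowest log2 fold change of the complex, -0.080 ± 0.17 (SE; edgeR, adjusted p = 0.916). Per kilobase of exon, *Atp5j* was at the head of all 84 members, at 16.3 ± 1.92 CPM over the 6 libraries (SD), followed by *Cox6a2* (15.7 ± 6.21), *Atp5f1* (13.8 ± 1.17) and *Cox8b* (13.3 ± 3.60). This order differed between the genotypes. In iMS*Bmal1*+/+ muscle *Atp5j* led with a mean of 16.78 CPM per kilobase. In iMS*Bmal1*-/- muscle *Cox6a2* (18.48) and *Cox8b* (16.01) lay above *Atp5j* (15.85). The median member was at 2.95 CPM per kilobase. The c ring of the rotor is built from 1 protein that 3 genes encode. *Atp5g3* had 12, 20 and 17 counts in iMS*Bmal1*+/+ muscle against 30, 18 and 28 in iMS*Bmal1*-/- muscle. Its groups do not overlap in CPM, and its log2 fold change of 0.73 ± 0.32 (SE; edgeR, adjusted p = 0.368) was the highest of the complex. *Atp5g1* had 0, 1 and 3 counts against 3, 4 and 7, and *Atp5g2* had 5, 5 and 1 against 4, 1 and 0. Per kilobase, *Atp5g3* was above both in 6 of 6 libraries (4.58 CPM, against 0.295 for *Atp5g1* and 0.775 for *Atp5g2*).

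**Figure D2:**
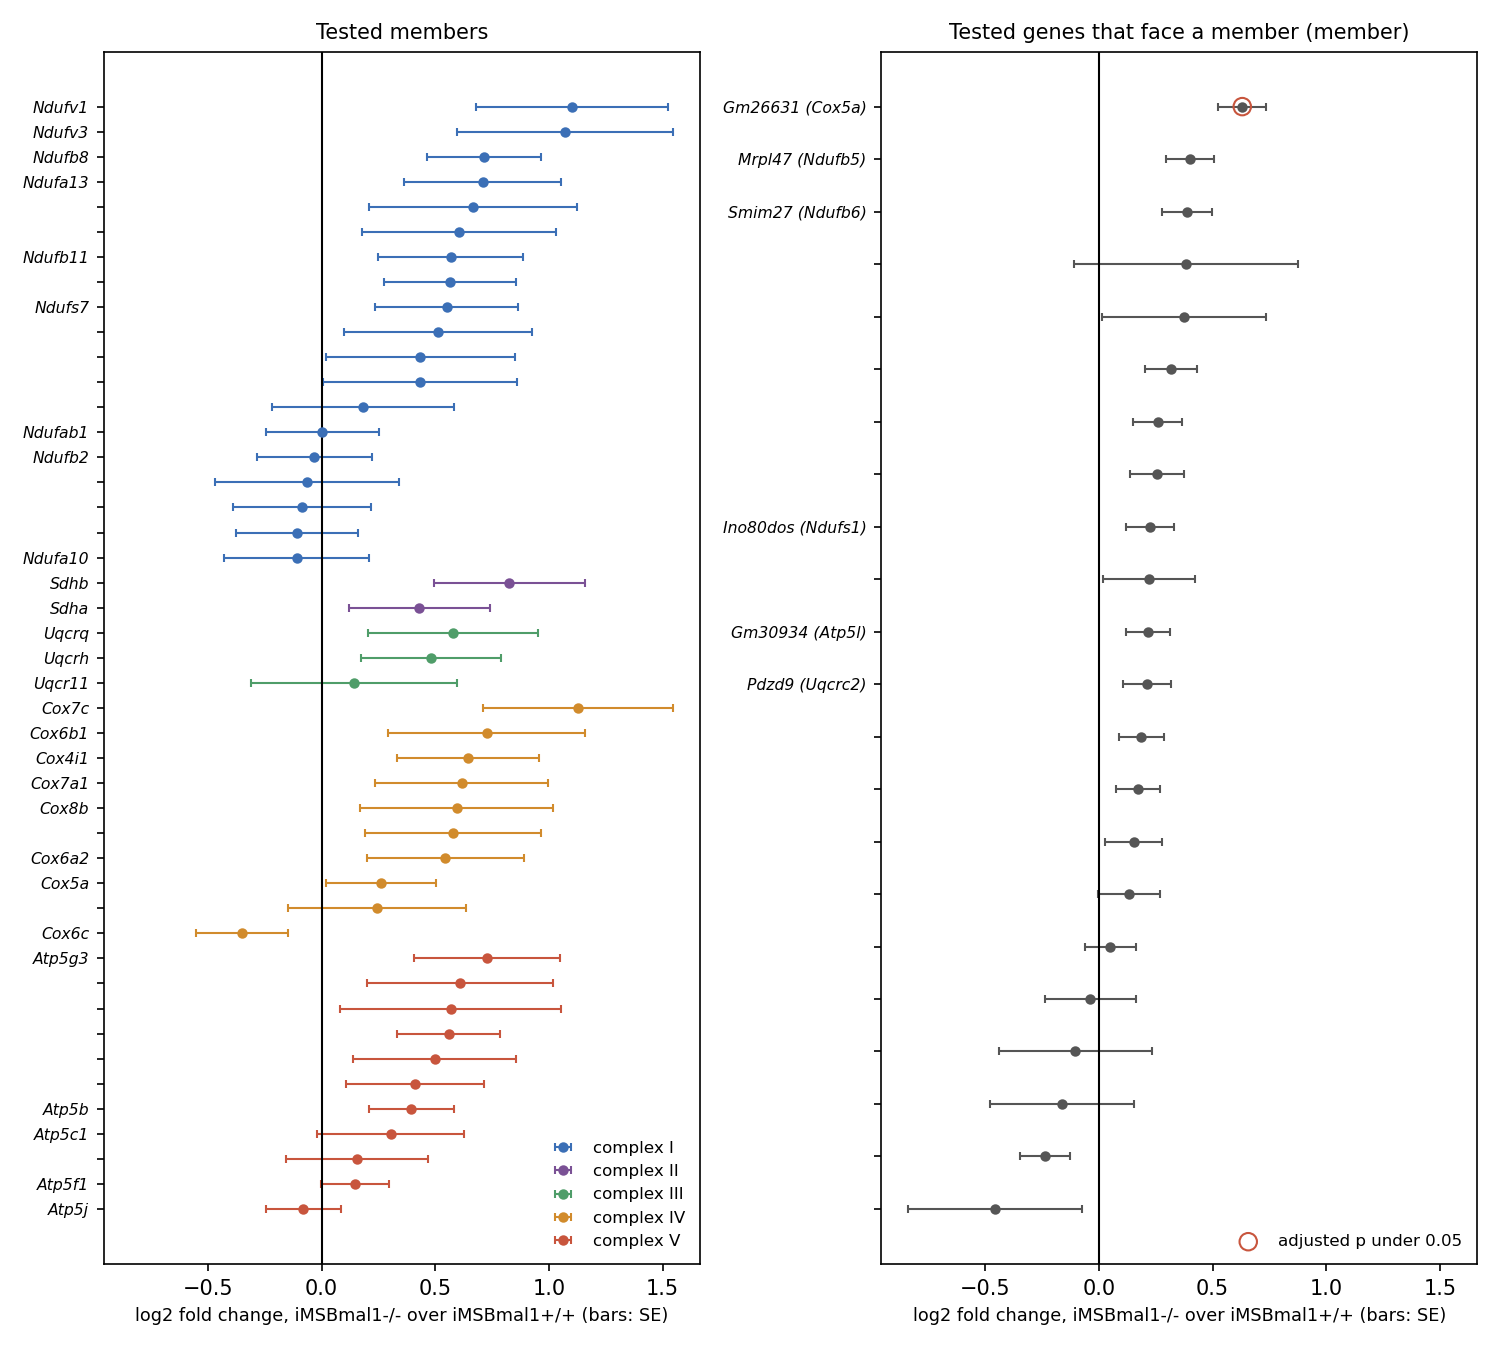
Log2 fold changes of the 45 tested members by complex (left) and of the 22 tested genes that face a member on the opposite strand, with the member in brackets (right), of which not all are labeled; bars are the SE of the edgeR fit on 3 libraries per genotype. Of the members 38 lie above 0 and none passed the threshold, and *Gm26631*, circled, was the only facing gene past it.

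The counts of a member have to be read beside those of the gene that faces it. Exons of 26 members share bases with exons of a gene on the opposite strand in the annotation, and 30 such facing genes hold 139410 counts over the 6 libraries, 17.4 times the 8035 counts of all 84 members. Since the strand setting is not known, the counts of a member may come from either strand as those of its facing gene may. The plot of member against facing counts shows every pair, and the text names only some. Over the 6 libraries, *Ndufab1* had 215 counts and its facing gene *Gm44986* 12158. With facing counts in brackets, *Ndufb2* had 205 (*Gm16272* 5448, *Braf* 131), *Ndufb11* 128 (*Rbm10* 1278) and *Cox6a2* 135 (*Itgad* 466). *Cox6c* had 364 (*Vps13b* 566), *Atp5j* 647 (*Gabpa* 1625) and *Ndufa13* 112 (*Tssk6* 35). *Atp5a1* had 414 (*Haus1* 3) and *Atp5f1* 717 (*Wdr77* 1, *Gm42890* 0). In 20 of the 30 pairs the facing gene had more counts than the member. The counts were high where coding bases of the member are shared: 11 of the 13 facing genes that share them averaged over 500 counts per library, against 1 of the 17 that share only other bases. That exception was *Emc8*, which shares 154 bases with the start of *Cox4i1* and had 11539 counts over the 6 libraries. Members without a facing gene had a median of 8.08 counts per library and members with one a median of 20.0.

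**Figure D3:**
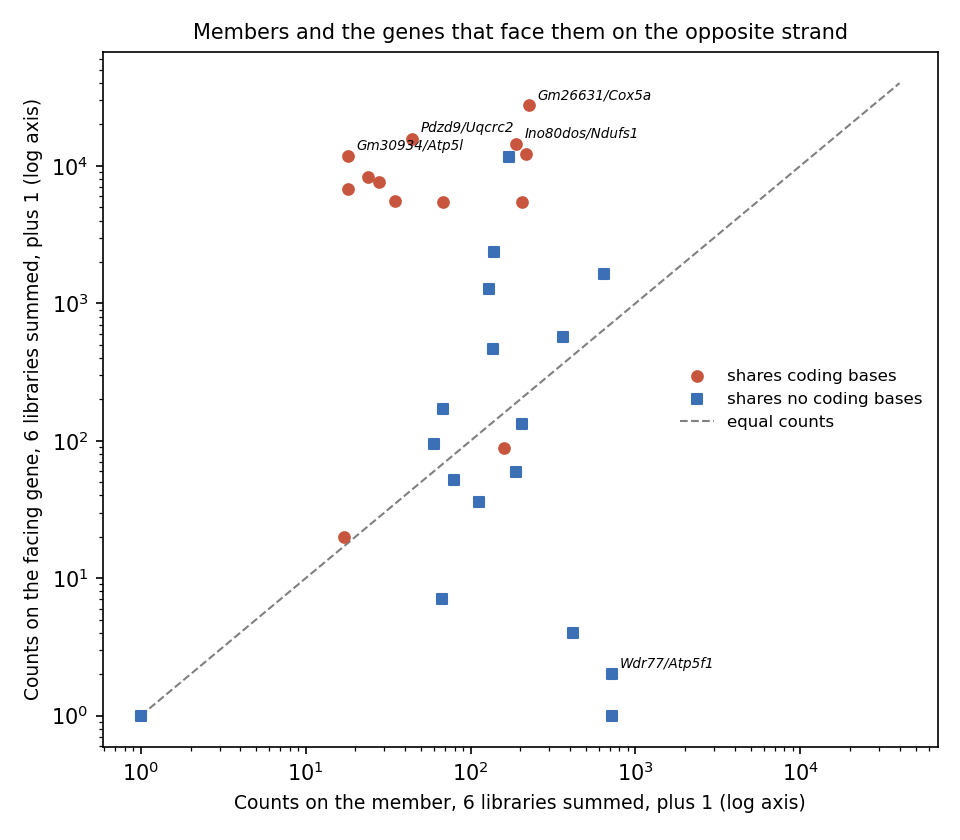
Counts summed over the 6 libraries, plus 1, on the member (horizontal log axis) and on the gene that faces it (vertical log axis), with 1 point per pair; red circles share coding bases of the member, blue squares do not, and the dashed line marks equal counts. Of the 30 pairs 20 lie above the line, with *Gm26631* facing *Cox5a* at the top (27562 and 224 counts).

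Among the 22 facing genes that could be tested, 1 rose and none fell by edgeR's test (1.83% of all genes tested), whereas 9 of the 22 had an unadjusted p under 0.05, as had 814 of all 6831 genes tested and 489 of the 3865 tested genes that have a facing gene. *Gm26631*, a noncoding gene on the strand opposite to *Cox5a*, shares 269 bases with it within chr9:57531669-57532426 (GRCm38), of which 111 are coding bases of *Cox5a* and 158 follow its coding sequence. It had 3702, 3560 and 4052 counts in iMS*Bmal1*+/+ muscle against 6140, 4785 and 5323 in iMS*Bmal1*-/- muscle. The groups do not overlap, and *Gm26631* rose by 0.63 ± 0.11 on the log2 scale (SE; edgeR, adjusted p = 0.00235; higher in 3 of 3 iMS*Bmal1*-/- libraries). *Cox5a* itself had 224 counts over the 6 libraries, and *Gm26631* also faces *Fam219b*, with 1092. In complex I, *Ino80dos* had the most counts of the facing genes, with 2259, 2186 and 2507 in iMS*Bmal1*+/+ muscle against 2864, 2242 and 2425 in iMS*Bmal1*-/- muscle. It shares 489 bases with *Ndufs1*, its groups do not overlap in CPM, and its log2 fold change was 0.23 ± 0.10 (SE; edgeR, adjusted p = 0.399), while that of *Ndufs1* was -0.11. *Mrpl47*, which encodes a mitochondrial ribosomal protein and faces *Ndufb5*, and *Smim27*, which faces *Ndufb6*, came closest to the threshold, with log2 fold changes of 0.40 ± 0.10 and 0.39 ± 0.11 (SE; edgeR, adjusted p = 0.0594 and 0.0897); they were chosen after their values were seen. With DESeq2, *Mrpl47* was also past the threshold.

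In complex III, *Pdzd9* shares 504 bases with the end of *Uqcrc2* and had 2472, 2340 and 2770 counts in iMS*Bmal1*+/+ muscle against 3355, 2287 and 2527 in iMS*Bmal1*-/- muscle. The groups overlap in CPM, with a log2 fold change of 0.21 ± 0.11 (SE; edgeR, adjusted p = 0.445), and *Pdzd9* had 366 times the counts of *Uqcrc2*. In complex V, *Gm30934* shares 133 bases with *Atp5l* and had 1587, 1769 and 2327 counts against 2300, 1695 and 2077, without overlap in CPM (log2 fold change 0.22 ± 0.10, SE; edgeR, adjusted p = 0.373). *Atp5l*, the g subunit of the membrane part, had 3, 4 and 3 counts against 1, 2 and 4. No facing gene was found for complex II. The facing genes summed to 10013, 10704 and 9132 CPM in iMS*Bmal1*+/+ muscle against 12834, 12328 and 11638 CPM in iMS*Bmal1*-/- muscle. These groups do not overlap, with a difference of 0.30 on the log2 scale (exact permutation test, two-sided, p = 0.1), and per 1000 CPM of muscle fiber markers they overlap, with a difference of -0.047. Of the 22 tested facing genes, 17 had a log2 fold change above 0 and 5 below, with a median of 0.21 (49.8% of all genes tested lay above 0). The groups did not overlap in 8 that were higher in iMS*Bmal1*-/- (8.84% of all genes tested) and in 1 that was lower (8.45%). The lower 1 was *Cbarp*, which faces *Atp5d*, with 415, 409 and 485 counts in iMS*Bmal1*+/+ muscle against 408, 266 and 362 in iMS*Bmal1*-/- muscle and a log2 fold change of -0.24 ± 0.11 (SE; edgeR, adjusted p = 0.414). The 12 facing genes that averaged over 500 counts all lay above 0, from 0.051 to 0.63. Members that no gene faces gave a difference of 0.49 on the log2 scale when summed alone, so the direction of the summed members does not rest on the 26 others. The same sum moved complex IV from 0.27 to 0.51 and complex V from 0.27 to 0.42.

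Genes that work with the subunits were counted in the same fit, in which 0.761% of all genes tested rose, 1.07% fell and 49.8% had a log2 fold change above 0. Of the 13 tricarboxylic acid cycle genes 9 were tested, 1 rose and none fell, and all 9 log2 fold changes were above 0 with a median of 0.30. The gene that rose was *Mdh2*, mitochondrial malate dehydrogenase, with 23, 33 and 26 counts in iMS*Bmal1*+/+ muscle against 62, 38 and 58 in iMS*Bmal1*-/- muscle (log2 fold change 1.04 ± 0.25, SE; edgeR, adjusted p = 0.0391). Its groups do not overlap. The call of *Mdh2* ended with DESeq2 (adjusted p = 0.0562) and without iMS*Bmal1*+/+ replicate 1 (0.130) or 3 (0.165) or iMS*Bmal1*-/- replicate 1 (0.163), 2 (0.0847) or 3 (0.127), with log2 fold changes from 0.86 to 1.28 over the 6 fits without 1 library. Of the 7 genes for cytochrome c, the adenine nucleotide and phosphate carriers and the porins, 5 were tested, 4 lay above 0 and none passed the test. Of the 45 assembly factors 12 were tested, 5 lay above 0 and 7 below, and none passed. Of 13 regulators of mitochondrial biogenesis 5 were tested, all above 0, and none passed. *Gabpa*, 1 of these 5, faces *Atp5j* and is counted among the facing genes as well. *Esrra* and *Gabpb1* also have a facing gene. Of the 13 subunits encoded by mitochondrial DNA 7 were tested, none rose and 1 fell, and 2 lay above 0 and 5 below with a median of -0.11. *mt-Nd5* (-0.38 ± 0.14) and *mt-Cytb* (-0.35 ± 0.13) had the next lowest log2 fold changes without passing the test (SE; edgeR, adjusted p = 0.246 and 0.243). The gene that fell was *mt-Nd4*, a proton-pumping subunit of complex I, with 1556, 1321 and 1323 counts in iMS*Bmal1*+/+ muscle against 899, 790 and 916 in iMS*Bmal1*-/- muscle (log2 fold change -0.59 ± 0.13, SE; edgeR, adjusted p = 0.0254). The groups do not overlap, in the direction opposite to that of the nuclear sums. The call of *mt-Nd4* ended without iMS*Bmal1*+/+ replicate 1 (adjusted p = 0.130) or 2 (0.0766) or iMS*Bmal1*-/- replicate 1 (0.144), 2 (0.0525) or 3 (0.0743), with log2 fold changes from -0.75 to -0.46 over the 6 fits. *mt-Nd6*, the only 1 of the 13 on the minus strand, held 416836 counts over the 6 libraries and the 12 on the plus strand together 215560.

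The counts on markers of other cell types are given for comparison. With the strand setting unknown, their sums may not follow these cells: *Myl3*, *Alas2* and *Csf1r*, which lead the lists of slow fibers, red blood cells and macrophages, have a facing gene, while *Hbb-bs*, *Hba-a1*, *Hbb-bt* and *Hba-a2* had 15, 5, 3 and 1 counts over the 6 libraries and *Adipoq* had 1. The slow fiber markers summed to 4.97, 6.19 and 5.31 CPM in iMS*Bmal1*+/+ muscle against 9.57, 6.59 and 8.11 CPM in iMS*Bmal1*-/- muscle, without overlap. None of these 7 was tested, *Myl3* was the most abundant with 37 counts over the 6 libraries, and *Tnni1* was at 0. Singly all 7 overlap, and *Tnnt1* and *Myh7* averaged lower in iMS*Bmal1*-/-. The 3 endothelial markers summed to 9.95, 11.4 and 8.73 CPM against 16.1, 12.6 and 12.9 CPM, also without overlap, with *Cdh5* the most abundant (87 counts over the 6 libraries), 1 tested, none past the test and none at 0. Singly all 3 overlap, and *Pecam1* averaged slightly lower in iMS*Bmal1*-/-. Their part in the difference of the member sums was not tested. The markers of red blood cells (led by *Alas2*, 2210 counts over the 6 libraries, with none of the 5 at 0), adipocytes (led by *Fabp4*, 114, with *Lep* at 0), macrophages (led by *Csf1r*, 780, with *Adgre1* at 0), fibroblasts (led by *Col3a1*, 138, with none at 0), Schwann cells (led by *S100b*, 51, with none at 0) and satellite cells (*Pax7*, 14) overlapped between the groups when summed, and none of their genes passed the test. These sums do not speak for each gene: *Csf1r* made up most of the macrophage sum and had a log2 fold change of -0.41 ± 0.17 (SE; edgeR, adjusted p = 0.333), while *Cd68* (2.06 and 3.80 CPM on average) and the fibroblast gene *Dcn* (1.26 and 2.86 CPM) were too low to be tested and lay higher in all iMS*Bmal1*-/- libraries.

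The promoters of the members were searched, as a description, for 3 motifs on both strands: CACGTG, the E-box form that the BMAL1 and CLOCK pair is known to bind, the NRF1 motif (GCGC, any 2 bases, GCGC), a core of the site of nuclear respiratory factor 1, and TCAAGGTCA, the site of the estrogen-related receptors. RefSeq promoters on GRCm38.p6, from 250 bases before to 50 after the start, were matched for 69 of the 84 members and gave 74 windows; among the others, *Ndufa2*, *Ndufb9*, *Ndufs1*, *Sdhc*, *Uqcrb*, *Uqcrc2*, *Uqcrq*, *Cox4i1*, *Cox4i2*, *Cox6a2*, *Cox6c*, *Cox8c*, *Atp5a1* and *Atp5mpl* were not matched. CACGTG was in 7 of the 74 windows (9.46%) and in 2349 of all 32851 windows (7.15%). The NRF1 motif was in 20 windows of members (27.0%) and in 6.23% of all windows, and TCAAGGTCA in 2 windows of members and in 0.423% of all. The windows with CACGTG belong to *Ndufa7* (2 windows), *Ndufv1*, *Atp5f1*, *Atp5g1*, *Atp5g3* and *Atp5l*. Of these, *Ndufv1* and *Atp5g3* had the highest log2 fold changes of the tested members of their complexes, and *Atp5f1* was at 0.15. *Ndufa7*, *Atp5g1* and *Atp5l* were too low to be tested. *Ndufa7* averaged 1.35 CPM in iMS*Bmal1*+/+ and 3.13 CPM in iMS*Bmal1*-/- muscle, and *Atp5g1* 0.552 and 2.35 CPM, both without overlap. *Atp5l* averaged lower in iMS*Bmal1*-/-. *Cox7c* and *Sdhb*, the highest of complexes IV and II, have no CACGTG in their windows. That of *Atp5g3* was the only member window with all 3 motifs. It and that of *Ndufv1*, both chosen after their values were seen, are printed 5′ to 3′ with the matches in capitals, for *Atp5g3* from chr2:73911277-73911576 and for *Ndufv1* from chr19:4012706-4013005, both on the minus strand.
*Atp5g3*: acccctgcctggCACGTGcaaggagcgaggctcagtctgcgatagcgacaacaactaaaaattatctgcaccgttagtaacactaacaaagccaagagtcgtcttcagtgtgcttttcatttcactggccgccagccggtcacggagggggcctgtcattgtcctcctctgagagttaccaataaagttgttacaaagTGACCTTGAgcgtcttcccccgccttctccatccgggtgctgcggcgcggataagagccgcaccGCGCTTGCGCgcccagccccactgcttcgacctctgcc
*Ndufv1*: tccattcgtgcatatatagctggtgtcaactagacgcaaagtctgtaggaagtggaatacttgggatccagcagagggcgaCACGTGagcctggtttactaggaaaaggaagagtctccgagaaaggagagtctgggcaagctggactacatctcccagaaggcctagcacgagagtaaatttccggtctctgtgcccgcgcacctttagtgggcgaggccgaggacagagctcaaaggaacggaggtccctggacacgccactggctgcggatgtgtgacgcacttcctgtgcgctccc
A match says that these letters stand in the window, and nothing of a factor bound there was measured.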

How the data were processed

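The authors aligned the read pairs (HISAT2, mm10), summarized them per gene (HTSeq) and deposited raw counts for 6 libraries. They also deposited a normalized signal, which equals the count divided by 1 DESeq2 size factor per library (0.828 to 1.26); within 0.01, 100% of these values gave whole reads, and edgeR on the recovered reads called 125 genes. Versions, annotation and strand setting are not given in the sources used here.

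Members and facing genes were found in GENCODE M21 (GRCm38), in which 147 of the 52636 identifiers were not found. A facing gene shares exon bases with a member on the opposite strand. Reads that *Ndufb2*, *Ndufb8* and *Atp5g2* share with a gene on their own strand, and reads shared by near-identical paralogs, may not have been counted. Counts were fitted across all genes with edgeR 4.0.16 (R 4.3.3; TMM, filterByExpr, quasi-likelihood test, two-sided, Benjamini-Hochberg adjusted p under 0.05), and the SE was taken from the F value. Sums used all members, without the filter, and exact permutation tests. DESeq2 1.42.0 and limma 3.58.1 (log2 of the normalized signal + 1 or + 0.5) were alternatives. The fits were tested on simulated data, drawn with the same spread for all genes. That does not show how often changes in genes as low as the members would be found. In each complex, the 3 most abundant members, the highest and lowest log2 fold change, the paralogs, tested members without overlap and the facing gene with the most counts were named; other members stand as examples of a role. The members not named are part of the sums and counts only. The members and lists were chosen with earlier results of these data known.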

Additional observations from a re-analysis of the deposited data

How the results depend on the processing

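No member passed the threshold in any of the 15 alternatives run, in which 28 to 81 members were tested. The fit on reads recovered from the normalized signal is among the 15. These reads equal the raw counts, so that fit repeats the main fit and is no separate check. *Gm26631* passed in all 15 (adjusted p from 6.15e-06 to 0.0194). The number of facing genes past the threshold was 2 with DESeq2 (*Mrpl47* added), which called 118 of all genes. It was 2 with at least 10 counts in every library, where 109 of all genes were called. With the replicate number as a block it was 3, and the block also took the calls among all genes from 125 to 220. Numbers do not pair the samples: same-numbered libraries correlated at -0.0373, -0.0166 and -0.0289. *Mdh2* passed in 9 of the 15 and *mt-Nd4* in 10. The block called no member and kept the calls of *Mdh2* and *mt-Nd4*. Calls under the block are not given for the markers and the other listed genes named here. The paired difference of the summed members was 0.33. The causes were not tested.

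Divided by the muscle fiber markers, a scaling added after seeing the data, the sums of complex IV (-0.081), complex V (-0.080), all members (-0.020) and facing genes (-0.047) changed sign on the log2 scale. The other scalings kept every sum above 0. Leaving out 1 library at a time gave 0.28 to 0.41 for all members and 0.39 to 0.63 for the median log2 fold change of the tested members. With the filter on the mean of all libraries (at least 10 counts, added after seeing the data), 44 members were tested, none was called and 37 lay above 0, with a median of 0.53.

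Uncalled log2 fold changes near 0 changed sign. That of *Ndufab1* was -0.029 without the filter and -0.025 and -0.026 on the log2 scales of the normalized signal, and -0.14 to 0.13 with 1 library left out. With 1 library left out, *Ndufb2* ranged from -0.16 to 0.067, *Ndufa10* from -0.19 to 0.0066, *Uqcr11* from -0.049 to 0.64 and *Atp5j* from -0.22 to 0.056. Other uncalled values moved by over 1.5 times: *Ndufv3* to 0.67, *Ndufs7* to 0.36, *Atp5b* to 0.22, *Ino80dos* to 0.15 and *Pdzd9* to 0.14 without iMS*Bmal1*+/+ replicate 3, *Cox5a* to 0.14 and *Atp5c1* to 0.20 without iMS*Bmal1*+/+ replicate 1, *Cox5a* to 0.13, *Ndufb11* to 0.37 and *Pdzd9* to 0.14 without iMS*Bmal1*-/- replicate 1, and *Ndufa13* to 0.41 without iMS*Bmal1*-/- replicate 2. *Cox6a2*, *Cox7a1* and *Sdha* are given beside their results. Without iMS*Bmal1*+/+ replicate 3, complex III (0.62) lay above complex II (0.59). Counts of single members were low, for a reason that was not tested: 66 of the 84 had under 30 counts in every library, and only 3 had over 50 in each.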
